A study of Homo sapiens with 16 samples.

Results

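Enterocytes, the absorptive cells of the gut lining, carry a brush border of microvilli whose membrane holds digestive enzymes and nutrient carriers. The level of 8 such genes, VIL1, MYO1A, A1CF, TMPRSS15, ANPEP, DPP4, SLC5A1 and FABP1, was followed in human colon cancer cells with and without dnLEF1. This construct is meant to block Wnt output. The members were taken by symbol, as a list of microvillus, brush border enzyme and absorption genes, and all 8 were found among the 26485 gene symbols of the count files. Polyadenylated RNA was sequenced in 16 libraries, 4 in each of 4 groups: SW480 cells with dnLEF1, SW480 cells with GFP, SW620 cells with dnLEF1 and SW620 cells with GFP, all at passage 6. SW480 and SW620 are established colorectal adenocarcinoma lines, from a primary tumour and a lymph node metastasis of the same patient, and a truncated APC keeps Wnt signalling high in both of them. The construct dnLEF1 is a LEF1 without the part that binds beta-catenin, so that it can occupy Wnt target genes without activating them, and GFP is the mock control. The labels give neither the way the constructs were introduced, nor whether a line is a clone or a pool, nor whether a group's libraries are separate cultures. A p-value here only sets the difference between groups against the scatter of these samples within a group, and that scatter may be technical.

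In the intestine, Wnt signalling is strongest at the crypt base, where it keeps cells dividing, and enterocytes mature as they move away from it. Villin, the product of VIL1, bundles the actin filaments of the microvillus core, and the brush border myosin MYO1A ties that core to the membrane. Enteropeptidase, from TMPRSS15, starts protein digestion by activating trypsinogen in the duodenum. The peptidases aminopeptidase N (ANPEP) and dipeptidyl peptidase 4 (DPP4) trim peptides at the surface, the carrier SGLT1 (SLC5A1) takes up glucose and galactose with sodium, and FABP1 binds fatty acids in the cytosol. A1CF is the RNA-binding partner of the cytidine deaminase APOBEC1 in editing of the APOB transcript. Several of these genes belong to the small intestine more than to the colon.

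Levels are given as CPM, gene counts scaled to library size by TMM over all 16 libraries, in the order of replicates 1 to 4. A library held between 17181204 and 26153506 gene counts. LEF1 averaged 246 ± 49.1 CPM in SW480 dnLEF1 and 51.6 ± 1.89 CPM in SW480 GFP, and 23.3 ± 2.35 CPM in SW620 dnLEF1 and 3.36 ± 0.501 CPM in SW620 GFP (SD, n = 4 each). Every dnLEF1 library was above every GFP library of its line. AXIN2, a direct target of the Wnt pathway, fell in SW480 dnLEF1 (69.7 ± 4.48 CPM, against 550 ± 11.3 CPM in SW480 GFP, edgeR adjusted p = 1.22e-12). In SW620 it did not pass the test, with 319.7 ± 11.2 CPM in dnLEF1 cells and 333 ± 14.6 CPM in GFP cells (edgeR adjusted p = 0.607). Of 10 colon epithelial markers, CDH17 and CEACAM6 were at 0 in all SW480 dnLEF1 libraries, and all 10 were counted in each of the other 3 groups. SW620 GFP replicate 3 stood apart. Of everything counted in it, within genes or not, 39.4% was alignments to more than 1 place, against 7.61% to 9.46% in the other 15 libraries.

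In SW480 cells dnLEF1 moved these genes in both directions. VIL1, TMPRSS15, A1CF and DPP4 fell, ANPEP and SLC5A1 rose, and MYO1A and FABP1 were too low to be tested. So 6 of the 8 passed the filter on low counts, and all 6 passed the test, 4 of them lower and 2 higher. Among all 14426 genes tested in that comparison, 24.4% were lower and 24.2% higher, 48.5% in either direction. A1CF and TMPRSS15, with no count and 2 counts over SW480 dnLEF1, passed the filter only through SW480 GFP, where they were high. DPP4 and ANPEP also needed the group where they were higher. Replicate 1 of the lower group was below the filter, with 4 counts of DPP4 in SW480 dnLEF1 and 7 of ANPEP in SW480 GFP. Passing through the higher group favours a call, and the list was chosen with earlier results of these data known. The count of 6 is therefore a description, and no excess over all genes is read from it. These are bulk samples, in which fewer cells that express a gene and less of its RNA per cell cannot be told apart.

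VIL1, on chromosome 2 from 218419121 to 218453295 (hg38, plus strand), had 1.75, 2.62, 2.94 and 2.41 CPM in the SW480 dnLEF1 libraries and 31.3, 35.3, 31.8 and 41.3 CPM in the SW480 GFP libraries. It had 300.4, 308, 305 and 299 CPM in SW620 dnLEF1 and 391, 373, 346 and 348 CPM in SW620 GFP. No 2 of the 4 groups overlapped, and the SW480 dnLEF1 libraries were the lowest. The fall was 14.3-fold in SW480 (log2 -3.84 ± 0.14, edgeR adjusted p = 3.90e-11) and 1.20-fold in SW620 (log2 -0.27 ± 0.05, edgeR adjusted p = 0.00601). No other member was called in both lines. Without SW620 GFP replicate 3 the SW620 value was log2 -0.29 (edgeR adjusted p = 0.00873).

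TMPRSS15, on chromosome 21 from 18269116 to 18485879 (minus strand), had 0, 0, 0.0841 and 0 CPM in SW480 dnLEF1, against 23.3, 34.5, 33.8 and 42.1 CPM in SW480 GFP. In counts that is 2 reads over the 4 dnLEF1 libraries and 2995 over the 4 GFP libraries. SW480 GFP was the only group of the 4 in which the gene was clearly counted: SW620 dnLEF1 had no count and SW620 GFP had 2, in replicate 2. The ratio of SW480 GFP to SW480 dnLEF1 in summed counts was 1518, with an exact 95% Poisson interval of 419.7 to 12537 that covers counting error only (edgeR adjusted p of the change = 3.90e-11). Both SW620 groups lay at or below a floor of 3 counts over the group, so no fold change is given there.

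A1CF, on chromosome 10 from 50799409 to 50885675 (minus strand), had no count in any SW480 dnLEF1 library, against 0.711, 1.39, 1.28 and 2.00 CPM in SW480 GFP, 120 counts in all. Against the same floor of 3 counts over the 4 libraries it was at least 40.5-fold lower (edgeR adjusted p = 1.39e-05). In SW620 the gene had 6.77, 4.79, 6.25 and 7.71 CPM with dnLEF1 and 5.62, 6.73, 6.39 and 6.74 CPM with GFP. The GFP libraries of SW620 lay within the range of the dnLEF1 libraries, and the difference did not pass the test (log2 0.01 ± 0.14, approximate 95% interval -0.27 to 0.29, edgeR adjusted p = 0.975). The deaminase it works with, APOBEC1, had 1 count in SW480 dnLEF1, 6 in SW480 GFP and none in SW620, and the edited transcript APOB had no count in any library.

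A1CF and TMPRSS15, which had no count and 2 counts in SW480 dnLEF1 cells and were called lower there, are shown here with the 250 bases before their RefSeq start sites (GRCh38.p14, both on the minus strand, written 5′ to 3′), because dnLEF1 acts at TCF/LEF sites. Capitals mark matches to short core motifs, each searched for on both strands. The GATA motif was AGATAA. The letters used for the TCF/LEF family were CTTTGA. The CDX homeobox motif was TTTATG, and for the HNF4 receptors the search used CAAAGTC. The windows are chr21:18403786-18404035 for TMPRSS15 and chr10:50885628-50885877 for A1CF.
TMPRSS15: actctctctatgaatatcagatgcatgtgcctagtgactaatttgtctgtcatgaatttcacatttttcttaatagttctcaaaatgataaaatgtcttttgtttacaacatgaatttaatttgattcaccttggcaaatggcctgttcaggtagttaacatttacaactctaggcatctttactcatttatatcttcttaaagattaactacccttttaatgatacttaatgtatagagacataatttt
A1CF: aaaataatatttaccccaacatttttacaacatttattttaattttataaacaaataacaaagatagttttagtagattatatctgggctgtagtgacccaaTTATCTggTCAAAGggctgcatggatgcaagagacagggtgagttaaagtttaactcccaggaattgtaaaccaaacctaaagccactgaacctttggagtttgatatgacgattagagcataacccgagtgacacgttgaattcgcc
The TMPRSS15 window held a match to none of the 4 motifs and so has no capitals. The A1CF window held a TCF/LEF match, in reverse as TCAAAG, 140 to 135 bases before the start, and a GATA match 148 to 143 bases before it. Of 35116 RefSeq windows of that length, 11.2% held the TCF/LEF letters, 9.17% the GATA letters, 9.64% the CDX letters and 2.91% the HNF4 letters. RefSeq promoter entries matched 7 of the 8 members, VIL1 being the one without. TCF/LEF letters also stood before SLC5A1, where they overlapped an HNF4 match, CDX letters before FABP1 and HNF4 letters before MYO1A. Such matches describe the sequence and are not binding sites, and the annotated TMPRSS15 gene reaches further upstream than the start used here.

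The surface peptidases moved in opposite directions in SW480. ANPEP, on chromosome 15 from 89784895 to 89815401 (minus strand), had 1.75, 2.20, 1.60 and 2.41 CPM in SW480 dnLEF1, against 0.276, 1.07, 0.571 and 0.775 CPM in SW480 GFP. The groups did not overlap, and the rise was 2.97-fold (log2 1.57 ± 0.31, edgeR adjusted p = 0.000829). DPP4, on chromosome 2 from 161992245 to 162074394 (minus strand), had 0.175, 0.465, 0.589 and 0.740 CPM in SW480 dnLEF1, against 1.03, 1.16, 1.33 and 2.19 CPM in SW480 GFP. Those groups did not overlap either, and the fall was 2.87-fold (log2 -1.52 ± 0.36, edgeR adjusted p = 0.00310).

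In SW620 neither peptidase was called. ANPEP had 0.593, 0.491, 0.472 and 1.04 CPM with dnLEF1 and 0.635, 0.553, 0.585 and 0.268 CPM with GFP, groups that overlapped (log2 0.37 ± 0.37, approximate 95% interval -0.34 to 1.09, edgeR adjusted p = 0.640). DPP4 was nearly uncounted there, with 0, 0, 1 and 1 counts in SW620 dnLEF1 and 3, 1, 0 and 0 counts in SW620 GFP. The ratio of SW620 dnLEF1 to SW620 GFP for DPP4 was 0.493, with an exact 95% interval of 0.0446 to 3.44. At this depth that interval allowed a fall of up to 22.4-fold and a rise of up to 3.44-fold.

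The sugar carrier SLC5A1, on chromosome 22 from 32043261 to 32113029 (plus strand), had 1.18, 1.69, 1.72 and 1.57 CPM in SW480 dnLEF1, against 0.671, 0.760, 0.476 and 1.09 CPM in SW480 GFP. Every dnLEF1 library was above every GFP library, and the rise was 2.06-fold (log2 1.04 ± 0.26, edgeR adjusted p = 0.00467). SW620 gave 1, 0, 1 and 1 counts with dnLEF1 and 2, 2, 0 and 2 with GFP, too few to test. The ratio of SW620 dnLEF1 to SW620 GFP was 0.493, with an exact 95% interval of 0.0798 to 2.31. SLC2A2, the carrier by which glucose leaves the enterocyte, and the disaccharidase SI had no count in any library.

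FABP1 and MYO1A stood near the floor of the assay. FABP1, on chromosome 2 from 88122982 to 88128062 (minus strand), had 1 count in SW480 dnLEF1, none in SW480 GFP, 6, 4, 5 and 3 counts in SW620 dnLEF1 and 1, 3, 2 and 5 counts in SW620 GFP. Nearly all of its counts came from SW620, where the groups overlapped (ratio of dnLEF1 to GFP 1.61, exact 95% interval 0.722 to 3.78). MYO1A, on chromosome 12 from 57028517 to 57051198 (minus strand), had 0, 3, 1 and 3 counts in SW480 dnLEF1 and 7, 3, 1 and 2 in SW480 GFP. It had 0.445, 0.430, 0.118 and 0.456 CPM in SW620 dnLEF1 and 0.272, 0.507, 0.692 and 0.625 CPM in SW620 GFP, groups that overlapped (log2 -0.56 ± 0.43, approximate 95% interval -1.41 to 0.29, edgeR adjusted p = 0.542). In SW480 the ratio was 0.531 with an exact 95% interval of 0.179 to 1.43.

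**Figure D1:**
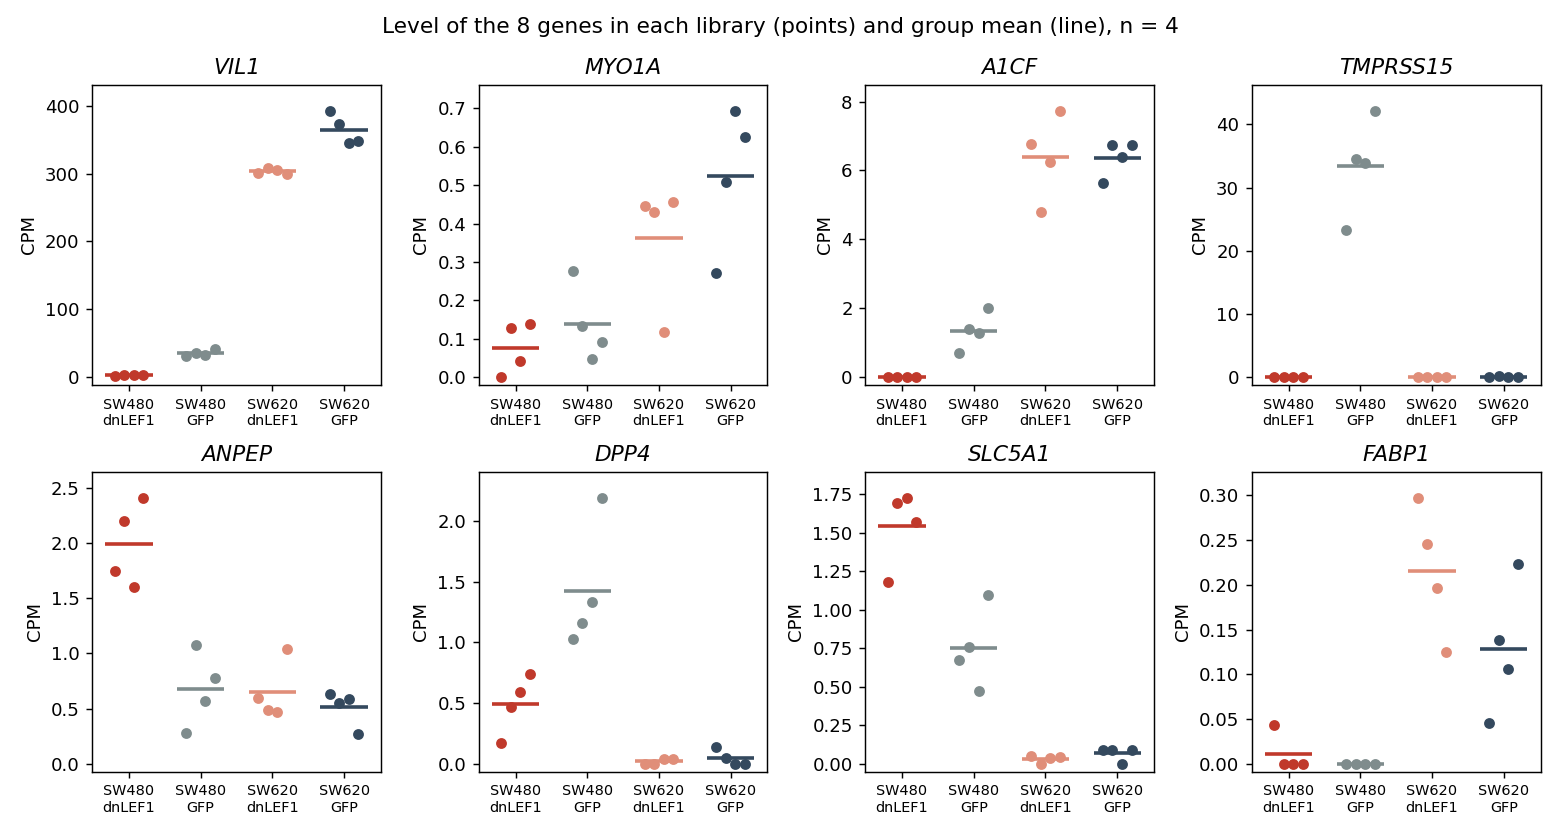
Level of each of the 8 genes in CPM, with 1 panel per gene and its own linear axis. Points are libraries and lines are group means (n = 4 per group), and the TMPRSS15 panel shows 23.3 to 42.1 CPM in SW480 GFP beside 3 groups at or near 0.

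In SW620 cells, then, 4 of the 8 genes passed the filter and 1 of them, VIL1, was called, against 2.43% of the 13336 genes tested called lower and 6.03% called higher. The other 3, A1CF, ANPEP and MYO1A, did not pass the test. Among all genes the construct also changed fewer in SW620, 8.46% in either direction.

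**Figure D2:**
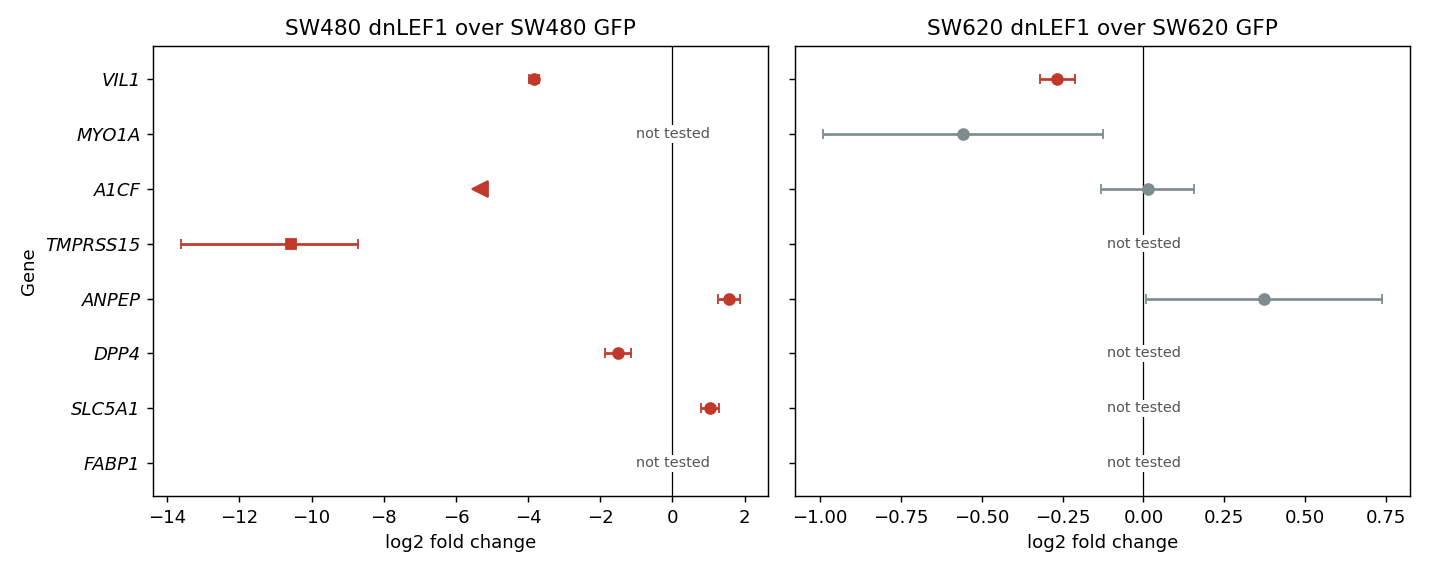
Change of each gene with dnLEF1 on the log2 scale, in SW480 (left) and SW620 (right, with a narrower axis). Circles are edgeR estimates ± SE (n = 4 against 4), the square is the ratio of summed counts with its exact 95% interval, and the triangle is a bound (A1CF, at least 40.5-fold lower). Red marks an adjusted p below 0.05 and grey the rest, "not tested" is below the filter, and ANPEP and SLC5A1 lie right of 0 in SW480.

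The difference between the lines in the effect of dnLEF1 was tested as an interaction in a fit of all 16 libraries. It passed for VIL1, whose log2 change was higher by 3.57 ± 0.14 in SW620 than in SW480 (edgeR adjusted p = 1.68e-13), and for A1CF (edgeR adjusted p = 9.82e-07). These are 2 of 6 members tested, against 16.2% of 14926 genes called in that direction, 12.3% in the other and 28.5% in either. ANPEP did not pass (log2 -1.20 ± 0.51, edgeR adjusted p = 0.0869), but it did without SW480 GFP replicate 2 (edgeR adjusted p = 0.0341), SW620 dnLEF1 replicate 4 (edgeR adjusted p = 0.0349) or SW620 GFP replicate 4 (edgeR adjusted p = 0.0467). SLC5A1 (edgeR adjusted p = 0.125) and DPP4 (edgeR adjusted p = 0.859) did not pass. LEF1 averaged 246 CPM in SW480 dnLEF1 and 23.3 CPM in SW620 dnLEF1, and AXIN2 did not pass in SW620 (edgeR adjusted p = 0.607). The line and the level of the construct therefore cannot be told apart in this difference. For TMPRSS15 the call differed between tools, with an adjusted p of 0.999 in edgeR, 3.83e-06 in DESeq2 and 2.01e-05 in limma voom. The edgeR estimate was log2 7.88 ± 203. SW620 dnLEF1 held no count and SW620 GFP 2, so the change in SW620, and with it the difference, could not be estimated. No line difference is read from these p-values, and why the tools differed was not tested.

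The GFP libraries show where the lines stood without dnLEF1. VIL1 was 10.4-fold higher in SW620 GFP than in SW480 GFP (log2 3.38 ± 0.09, edgeR adjusted p = 1.49e-13), and A1CF 4.74-fold higher (log2 2.25 ± 0.22, edgeR adjusted p = 3.04e-07). TMPRSS15, DPP4 and SLC5A1 were lower in SW620 GFP. DPP4 was 27.1-fold lower (log2 -4.76 ± 0.57, edgeR adjusted p = 2.28e-06), a value that rests on 4 counts in SW620 GFP, 3 of them in replicate 1. The exact 95% interval of its count ratio was 11.4-fold to 112-fold lower, and without that replicate the log2 change was -6.04. SLC5A1 was 9.96-fold lower (log2 -3.32 ± 0.51, edgeR adjusted p = 3.45e-05). The summed TMPRSS15 counts of SW480 GFP were 1403 times those of SW620 GFP after scaling, with an exact 95% interval of 388 to 11587 (edgeR adjusted p = 6.15e-12). ANPEP did not pass (log2 -0.40 ± 0.40, edgeR adjusted p = 0.381). These 2 higher and 3 lower members of 6 tested stand against 37.7% of 14350 genes higher, 40.3% lower and 78% in either direction, so most genes differed between the lines. TMPRSS15, DPP4 and SLC5A1, with 2, 4 and 6 counts over SW620 GFP, passed the filter only through SW480 GFP, where they were higher. Passing in that way favours a call of lower, so these counts are a description and no excess is read from them.

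The remaining pair was below the filter in that comparison. FABP1 was at least 3.91-fold higher in SW620 GFP against the floor, and MYO1A had 3.61 times the scaled counts, with an exact 95% interval of 1.91 to 7.31. Both passed once the filter was dropped, FABP1 at an edgeR adjusted p of 0.00511 and MYO1A at 0.00420, and both passed with DESeq2, at adjusted p-values of 0.0178 and 0.00817. The comparison of SW480 dnLEF1 with SW480 GFP and the comparison of the GFP libraries share the SW480 GFP libraries, so their values are not independent of each other.

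Per kilobase of merged exons, the members could be ranked within a group. In SW620 VIL1 stood far above the rest, at 44 ± 0.633 CPM per kb with dnLEF1 and 52.9 ± 3.15 CPM per kb with GFP, followed by A1CF at 0.664 ± 0.127 and 0.663 ± 0.0548 CPM per kb. In SW480 GFP the top pair was TMPRSS15 at 7.66 ± 1.77 and VIL1 at 5.07 ± 0.669 CPM per kb (SD, n = 4 each), whose ranges overlapped (5.33 to 9.64 and 4.54 to 6.00 CPM per kb). Before division by merged exon lengths of 4.362 and 6.891 kb their means were 33.4 and 34.9 CPM. The order of that pair thus rests on the lengths used. In SW480 dnLEF1 that order was gone: ANPEP, at 0.394 ± 0.0749 CPM per kb, VIL1, at 0.353 ± 0.0733, and SLC5A1, at 0.304 ± 0.0492, had overlapping ranges. Summed over the 8 genes, the level was 4.90 to 7.27 CPM in SW480 dnLEF1 and 57.5 to 89.5 CPM in SW480 GFP. The sum was 308 to 314 CPM in SW620 dnLEF1 and 353 to 398 CPM in SW620 GFP, nearly all of it VIL1.

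Within SW480 GFP the libraries themselves differed. Replicate 4 was the highest of the 4 for VIL1, TMPRSS15, A1CF, DPP4 and SLC5A1, and replicate 1 the lowest for VIL1, TMPRSS15, A1CF, DPP4 and ANPEP. Leaving out any 1 library kept every call of the 6 members in SW480.

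Gene lists for the rest of the enterocyte programme, 140 genes in the files beside the 8, also split. In SW480, 76 of the 140 were tested, of which 21 rose and 31 fell, with a median log2 change of -0.10 against -0.0013 over all genes tested. In SW620, 74 were tested, of which 5 rose and 6 fell, with a median of -0.016. Called genes of all those tested made up 24.2% higher and 24.4% lower in SW480, and 6.03% higher and 2.43% lower in SW620.

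Of 25 genes of microvillus structure, 19 were tested in SW480, of which 8 rose and 10 fell. The falls included USH1C, the harmonin scaffold that links neighbouring microvilli, at 2.06 ± 0.581 CPM in SW480 dnLEF1 and 17.4 ± 4.84 CPM in SW480 GFP (log2 -3.07 ± 0.24, edgeR adjusted p = 1.05e-07). BAIAP2L2, a membrane-bending microvillus protein, had 0.161 ± 0.0683 CPM in SW480 dnLEF1 and 4.73 ± 1.73 CPM in SW480 GFP (log2 -4.81 ± 0.37, edgeR adjusted p = 9.49e-08). The myosin MYO1D, at 134 ± 14.6 CPM in SW480 dnLEF1 and 421 ± 29.4 CPM in SW480 GFP, also fell (log2 -1.65 ± 0.08, edgeR adjusted p = 9.80e-10). The actin bundler PLS3 rose, to 168 ± 8.78 CPM in SW480 dnLEF1 against 93.3 ± 9.42 CPM in SW480 GFP (log2 0.85 ± 0.08, edgeR adjusted p = 5.47e-07).

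In SW620, 22 of the 25 were tested, of which 3 rose and 3 fell. PLS3 rose (log2 0.32 ± 0.06, edgeR adjusted p = 0.00488) and MYO1D fell (log2 -0.33 ± 0.07, edgeR adjusted p = 0.00624), each in the direction seen in SW480. The protocadherin CDHR2, which joins microvillus tips, had 15.0 ± 1.95 CPM in SW620 dnLEF1 and 20.5 ± 1.78 CPM in SW620 GFP (log2 -0.45 ± 0.10, edgeR adjusted p = 0.0113), but an adjusted p of 0.122 in the fit of all 16 libraries. The scaffold PDZK1 rose (log2 0.64 ± 0.15, edgeR adjusted p = 0.0119), with an adjusted p of 0.118 in that fit. USH1C (log2 -0.02 ± 0.06, edgeR adjusted p = 0.912) and BAIAP2L2 (log2 0.07 ± 0.09, edgeR adjusted p = 0.747) did not pass in SW620. The difference between the lines passed for both of them (edgeR adjusted p = 5.54e-09 and 3.34e-09).

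Of 23 brush border enzymes, 8 were tested in SW480, of which 2 rose and 1 fell, a median of 0.08. The count of falls turned on the setting, 5 without the filter, 4 with DESeq2, 3 without SW480 GFP replicate 1 and 2 without any 1 of the SW480 dnLEF1 replicates. ACE, the angiotensin-converting enzyme, rose (log2 1.21 ± 0.16, edgeR adjusted p = 2.20e-05). The neutral endopeptidase MME, at 0.0347 ± 0.0694 CPM in SW480 dnLEF1 and 1.14 ± 0.382 CPM in SW480 GFP, fell (edgeR adjusted p = 2.08e-05). None of the 7 tested in SW620 was called by the main edgeR fit, DESeq2 or limma voom, and 2 had an unadjusted p below 0.05, both lower. The count of calls was 2, both lower, without SW620 dnLEF1 replicate 3, and 2 were called lower in an edgeR fit with a term for replicate number. In SW620 MME had 175 ± 12 CPM with dnLEF1 and 199.6 ± 14.6 CPM with GFP (log2 -0.19 ± 0.07, edgeR adjusted p = 0.106). It was called without SW620 dnLEF1 replicate 3 (log2 -0.25, edgeR adjusted p = 0.0421) and with the term for replicate number (log2 -0.19, edgeR adjusted p = 0.0131).

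Of 40 nutrient and ion transporters, 21 were tested in SW480, of which 5 rose and 9 fell. The amino acid carriers went opposite ways: SLC6A20 rose, to 5.43 ± 0.780 CPM in SW480 dnLEF1 against 0.509 ± 0.199 CPM in SW480 GFP (log2 3.38 ± 0.24, edgeR adjusted p = 3.51e-08), and SLC6A19 fell, to 1 count over SW480 dnLEF1 against 96 over SW480 GFP (edgeR adjusted p = 5.50e-06). The iron exporter SLC40A1 fell (log2 -1.64 ± 0.18, edgeR adjusted p = 4.61e-06). The sodium-proton exchanger SLC9A3 fell in SW480 (log2 -1.91 ± 0.32, edgeR adjusted p = 0.000243) and in SW620 (log2 -3.20 ± 0.51, edgeR adjusted p = 0.000933), where 15 were tested, 1 rose and 2 fell. In SW620 the number that fell was 1 without SW620 dnLEF1 replicate 1, 2 or 3 or SW620 GFP replicate 2 or 4, and the number that rose was 2 with DESeq2, with limma voom and without SW620 dnLEF1 replicate 2. Of 24 lipid absorption genes 9 were tested in SW480, with 4 higher and 1 lower, and 12 in SW620, with 1 higher. That 1 was ACSL5, which activates fatty acids, and it rose in SW480 (log2 1.29 ± 0.10, edgeR adjusted p = 1.39e-07) as in SW620 (log2 1.08 ± 0.16, edgeR adjusted p = 0.000577). Of the lipid genes, 4 were lower in SW480 without the filter and 3 with DESeq2, and 3 were higher in SW620 without SW620 GFP replicate 1 and 2 with DESeq2.

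Of 5 editing partners of APOBEC1, 4 were tested in SW480, of which CELF2 and KHSRP fell. None of the 3 tested in SW620 was called by the main edgeR fit, DESeq2 or limma voom, 1 having an unadjusted p below 0.05. The edgeR fit with a term for replicate number called 1 lower there. RBM47, which like A1CF binds APOBEC1, had 11 ± 0.567 CPM in SW480 dnLEF1 and 13.0 ± 2.28 CPM in SW480 GFP (log2 -0.24 ± 0.12, edgeR adjusted p = 0.114), and passed without SW480 GFP replicate 1 (log2 -0.32, edgeR adjusted p = 0.0260). In SW620 it had 53.0 ± 3.85 CPM with dnLEF1 and 53.7 ± 1.13 CPM with GFP (edgeR adjusted p = 0.927).

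Of 23 regulators of enterocytes, 15 were tested in SW480, of which 2 rose, or 1 without SW480 GFP replicate 4, and 8 fell. The homeobox factor CDX2 fell to 0.131 ± 0.0612 CPM in SW480 dnLEF1, against 12.2 ± 0.611 CPM in SW480 GFP. KLF5 fell in SW480 (log2 -1.54 ± 0.09, edgeR adjusted p = 6.25e-09) and did not pass in SW620 (edgeR adjusted p = 0.341), except without SW620 GFP replicate 1 (log2 -0.22, edgeR adjusted p = 0.0364).

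The HNF4 factors, named after their values were seen, also differed between the lines. HNF4G had no count in SW480 dnLEF1, against 91 over SW480 GFP (edgeR adjusted p = 1.68e-05), and 15.6 ± 1.01 CPM in SW620 dnLEF1 and 15.1 ± 0.465 CPM in SW620 GFP. HNF4A had 9.53 ± 0.828 CPM in SW480 dnLEF1 and 14.0 ± 2.07 CPM in SW480 GFP (log2 -0.55 ± 0.12, edgeR adjusted p = 0.00147), against 172 ± 17.7 CPM in SW620 dnLEF1 and 175 ± 18.1 CPM in SW620 GFP. PPARGC1A, a coactivator of mitochondrial genes, moved in opposite directions, up in SW480 (log2 2.22 ± 0.26, edgeR adjusted p = 7.74e-06) and down in SW620 (log2 -2.21 ± 0.42, edgeR adjusted p = 0.0037). It was the 1 regulator of 15 tested that was called in SW620, where 4 were lower and 1 higher without SW620 GFP replicate 1, and 2 were lower without the filter.

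**Figure D3:**
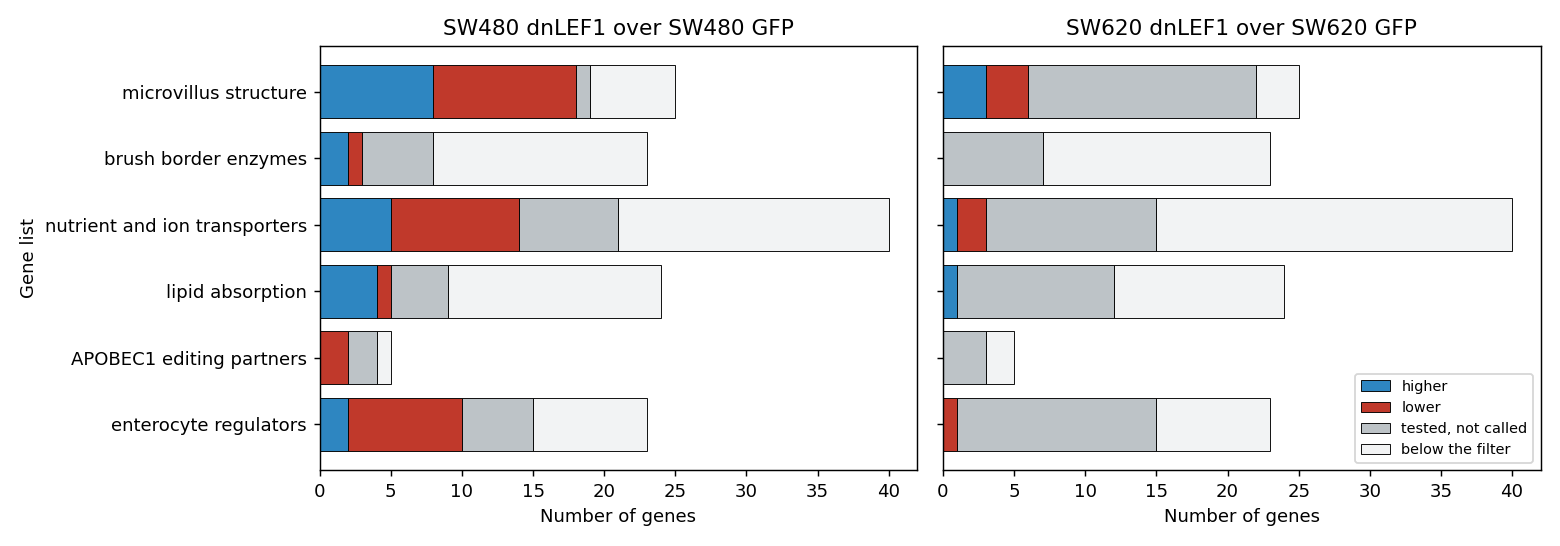
Number of genes of each enterocyte list that were higher, lower, tested but not called, or below the filter, in SW480 (left) and SW620 (right) dnLEF1 over GFP. Microvillus genes split into 8 higher and 10 lower in SW480, and 3 and 3 in SW620.

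Markers of other cell types moved as well, and their part in these results was not tested. The summed level of 17 secretory lineage markers was 113 to 154 CPM in SW480 dnLEF1 and 247 to 277 CPM in SW480 GFP, with TFF3, CLCA1, ZG16 and NEUROG3 at 0 in SW480 dnLEF1 and CLCA1, SPINK4, AGR2 and NEUROG3 at 0 in SW480 GFP. Of the 8 tested in SW480, DEFA5, DEFA6 and LYZ were called higher and 5 lower. The sum was 63.8 to 78.6 CPM in SW620 dnLEF1 and 38.7 to 47.8 CPM in SW620 GFP, with 8 and 6 of the 17 at 0. Of the 5 tested in SW620, CHGB, DCLK1, AGR2 and LYZ were called higher and 0 lower. Among all genes tested in SW620, 6.03% were higher and 2.43% lower. The 10 colon epithelial markers summed to 7084 to 8507 CPM in SW480 dnLEF1 and 10680 to 12439 CPM in SW480 GFP, and to 8220 to 10516 CPM in SW620 dnLEF1 and 9532 to 11891 CPM in SW620 GFP. The 9 fibroblast and smooth muscle markers summed to 23.8 to 54.6 CPM in SW480 dnLEF1, 16.5 to 27.2 CPM in SW480 GFP, 2.82 to 3.68 CPM in SW620 dnLEF1 and 5.03 to 6.88 CPM in SW620 GFP, with DCN at 0 in both SW480 groups and COL3A1 in both SW620 groups. The 8 endothelial and blood cell markers summed to 6.80 to 8.75 CPM in SW480 dnLEF1 and 2.76 to 3.55 CPM in SW480 GFP, ranges that did not overlap, and both of those tested there, CD68 and VWF, were called higher. They summed to 3.40 to 4.64 CPM in SW620 dnLEF1 and 3.89 to 5.85 CPM in SW620 GFP. PTPRC, CD3E and HBB were at 0 in every group but SW480 GFP, where all 8 were counted. The 7 hepatocyte markers summed to 73.6 to 155 CPM in SW480 dnLEF1, 103 to 177 CPM in SW480 GFP, 16.3 to 22.7 CPM in SW620 dnLEF1 and 19.3 to 28.9 CPM in SW620 GFP, with TTR at 0 in every group.

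Genes with the pattern most like a member over the 4 group means were sought among 14070 genes, by the root mean square difference of centred log2(CPM + 0.5). For VIL1 the closest were POF1B (0.104) and GRIK2 (0.161). POF1B averaged 0.0871 CPM in SW480 dnLEF1, 7.53 CPM in SW480 GFP, 57.8 CPM in SW620 dnLEF1 and 68.0 CPM in SW620 GFP, the same order of groups as VIL1. For TMPRSS15 they were GABRG1 (0.274), PDE3A (0.317) and DMD (0.489), all near 0 outside SW480 GFP.

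**Figure D4:**
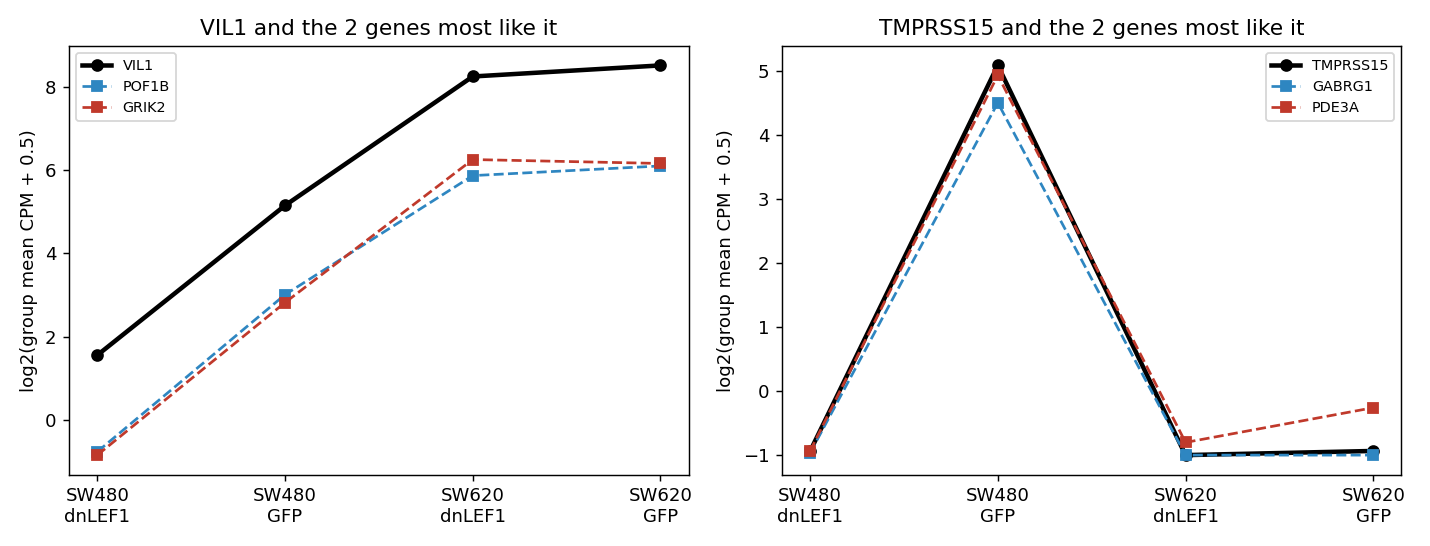
Group means of VIL1 (left) and TMPRSS15 (right) and of the 2 genes most like each, as log2(group mean CPM + 0.5) over the 4 groups, with lines that only guide the eye. VIL1 and its 2 genes are lowest in SW480 dnLEF1 and highest in the SW620 groups, and TMPRSS15 and its 2 peak in SW480 GFP.

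The 0.5 added to CPM flattens the pattern of any gene that is low in a group, and the other 4 members are lower. It also flattens the falls of the genes matched to VIL1. POF1B and GRIK2 averaged 0.0871 and 0.0552 CPM in SW480 dnLEF1, against 2.43 CPM for VIL1. A1CF was closest to ADAMTSL2 (0.0192), MYT1 (0.0205) and ASPSCR1 (0.0699), ANPEP to GAL3ST4 (0.0193), SLC5A1 to TCEAL3 (0.0249) and DPP4 to EIF5A2 (0.0201). Each of these values rests on 4 group means and is a description, with no p.

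The 5 measured genes on either side of a member in the annotation were read for the 3 with the largest falls. Around VIL1 the 10 neighbours had a median log2 change of 0.22 in SW480, within -0.50 to 0.51, with 4 higher and 2 lower. Around A1CF the median was -0.26, with 1 higher and 5 lower, PCDH15 among the lower ones. Around TMPRSS15 the median was -0.50, with 1 higher and 7 lower, among them CHODL, MIR99AHG and CXADR. In SW620 the medians were -0.04, 0.02 and -0.07. Of all genes tested in SW480, 24.4% were lower and 24.2% higher. The neighbours were taken by order on the chromosome with no limit on distance, so some may lie far from the member. Whether position had a part in these changes was not tested.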

How the data were processed

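Polyadenylated RNA from 16 libraries was counted per gene. The authors deposited raw counts. The submitters' processing notes name Trimmomatic, TopHat2, HTSeq and DESeq2 on hg38. Tool versions, the annotation and the use of strand were not given in the sources used here, so overlapping and antisense genes cannot be told apart. Reads aligned to several places are outside the gene counts. The 5 summary lines, which name no gene, took no part in library sizes or tests. Their share was 50.5% in SW620 GFP replicate 3 and 20.0% to 24.3% elsewhere.

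Counts were tested in edgeR 4.0.16 (R 4.3.3) with TMM scaling, filterByExpr, the quasi-likelihood test and Benjamini-Hochberg adjustment over all genes tested, called below 0.05. Each comparison was fitted on its own 8 libraries, the interaction on all 16. The scripts were tested on simulated data. SE is the size of the log2 fold change divided by the root of the F statistic, and approximate intervals are 1.96 SE wide on each side. Floors and exact intervals cover counting error only. No pair of libraries in a group agreed within counting noise (chi-square per degree of freedom 1.99 to 22.2), so all were kept as separate samples. That excess does not show that they are separate cultures. Replicates 2 and 3 were the closest pair in both SW480 groups, at 1.99 in SW480 GFP and 2.33 in SW480 dnLEF1. The other SW480 pairs gave 6.78 to 22.2. Replicate numbers were not taken to pair samples. Positions and exon lengths are from GENCODE 44, promoters from RefSeq.

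The members and the lists were chosen with earlier results of these data known. Named are all 8 members, up to 4 called genes per list, direction and dnLEF1 comparison with the smallest adjusted p, LEF1, AXIN2 and the 3 genes most like each member with a mean of at least 1 CPM in a group; not all are printed, and some are not reported here. RBM47, APOBEC1, APOB, SLC2A2, SI, HNF4A and HNF4G were named after their values were seen, and markers and neighbouring genes are named only to say which made up a count or were at 0. Alternatives were size factors of DESeq2, no filter, DESeq2 1.42.0, limma voom 3.58.1, each library left out, the replicate block and 1 fit of all 16 libraries.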

Additional observations from a re-analysis of the deposited data

Results flagged for a closer look

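Among the members, LEF1, AXIN2 and the genes of the enterocyte lists whose values are given above, the change with dnLEF1 differed between the lines by a test of the difference itself (edgeR interaction, SW620 minus SW480 on the log2 scale). The difference was positive for VIL1 (3.57), A1CF (7.90), USH1C (3.05), BAIAP2L2 (4.87), CDHR2 (3.57), MYO1D (1.32), MME (4.69), SLC40A1 (2.08), CDX2 (6.89), HNF4A (0.53), HNF4G (7.53), KLF5 (1.40), AXIN2 (2.92) and LEF1 (0.53). It was negative for PLS3 (-0.53), ACE (-1.28) and PPARGC1A (-4.43). For LEF1 the difference compares rises over each line's own GFP mean, 51.6 CPM in SW480 and 3.36 CPM in SW620. The LEF1 mean itself was lower in SW620 dnLEF1 (23.3 CPM) than in SW480 dnLEF1 (246 CPM). The values of A1CF and HNF4G depend on the prior count, since SW480 dnLEF1 held no count of either. The value of MME rests on 3 counts in SW480 dnLEF1 replicate 4 and ran from 4.32 to 7.46 over the alternatives, the highest being without that replicate.

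Single libraries far from the other 3 of their group were sought by the gap to the nearest library as a share of the group's range, by Dixon's critical value for 4 samples. Chance alone marks about 1 in 20 groups, and 120 groups were looked at. Among the members, a lone library with a count, or a lone library without one, gave a share of 1 for TMPRSS15 in SW480 dnLEF1 replicate 3 and SW620 GFP replicate 2 and for FABP1 in SW480 dnLEF1 replicate 1, and 0.969 for SLC5A1 in SW620 GFP replicate 3. MYO1A was low in SW620 dnLEF1 replicate 3 (0.922). LEF1 was low in SW480 dnLEF1 replicate 4 (0.964) and SW480 GFP replicate 3 (0.846), and AXIN2 stood apart in SW480 dnLEF1 replicate 4 (0.897). KLF5 stood apart in SW480 dnLEF1 replicate 1 (0.861). A lone library with counts gave a share of 1 for MME in SW480 dnLEF1 replicate 4, SLC6A20 in SW620 dnLEF1 replicate 2 and SW620 GFP replicate 4, SLC6A19 in SW480 dnLEF1 replicate 1 and APOBEC1 in SW480 dnLEF1 replicate 3. The share of alignments to more than 1 place was high in SW620 GFP replicate 3 (0.975).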

How the results depend on the processing

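No called value changed sign in any alternative run, and the uncalled change of A1CF in SW620 ran from -0.095 to 0.12 on the log2 scale. In SW480 the members' counts, 2 higher and 4 lower, were the same under every alternative, and so were those in SW620, 0 and 1. Between the GFP libraries of the lines, 4 members rather than 2 were higher without the filter and with DESeq2, FABP1 and MYO1A being added. In the difference between the lines, the count of members in the negative direction ran from 0 to 1 with each library left out, the 1 being ANPEP. For the other enterocyte genes in SW620, leaving out each library gave 4 to 8 higher (8 without SW620 GFP replicate 1) and 5 to 9 lower.

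Libraries with the same replicate number did not deviate together throughout (correlations -0.22 to 0.32 in SW480 and -0.06 to 0.52 in SW620), and 2 of 8 libraries in SW480 and 6 of 8 in SW620 were closest to their own number. With the replicate block, 676 rather than 324 genes were lower in SW620, and 11 and 12 rather than 5 and 6 other enterocyte genes were higher and lower. In SW620 the block called 2 enzymes and 1 editing partner lower, 3 transporters and 4 lipid genes higher, and 1 regulator higher and 3 lower. MME (adjusted p = 0.0131), SLC40A1 (0.00406) and CDX2 (0.00848) were among its SW620 calls, and in SW480 it called 4 regulators higher. The members' counts under the block were 2 and 4 in SW480, 0 and 1 in SW620, 2 and 3 between the GFP libraries and 2 and 0 in the interaction.

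Depth limits FABP1 and MYO1A, and TMPRSS15, DPP4 and SLC5A1 in SW620, where the groups held 0 to 6 counts in all.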
